A study of Saccharomyces cerevisiae with 8 samples.

Results

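Cytosolic translation factors are the soluble proteins that bring the ribosome to the start codon, move it along the mRNA and release it at the stop codon. The set described here holds 42 genes of budding yeast (Saccharomyces cerevisiae, strain background W303), chosen by name: 28 act in initiation, 9 in elongation, and 5 in termination, recycling or ribosome rescue. They were 42 of the 6668 genes listed in every deposited table, and all 42 were among the 3737 genes with a mean of at least 50 reads in each assay. The genotypes were W303 msp1delta, W303 pex19delta, W303 msp1delta pex19delta (the double deletion below) and W303, called wild type here. MSP1 encodes an ATPase of the mitochondrial outer membrane that extracts mistargeted tail-anchored proteins, and PEX19 encodes the chaperone and import receptor for peroxisomal membrane proteins. From each genotype came 1 library for RNA-seq and 1 for ribosome-protected fragments (RPF, the mRNA pieces covered by translating ribosomes), 8 libraries in all. The medium was synthetic complete for all 4 genotypes, and its carbon sources were 2% glycerol and 2% ethanol, which yeast can use only by respiration. With 1 library per genotype and assay there was no spread between cultures and no test, and the 3 comparisons share the same wild-type libraries.

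As background, initiation in yeast begins when eIF2 carries the initiator tRNA to the small ribosomal subunit, helped by eIF1, eIF1A, eIF3 and eIF5, while eIF4F binds the cap and eIF4A, eIF4B and Ded1 help to open the 5′ leader. The exchange factor eIF2B then recharges eIF2 with GTP, the step that the Gcn2 kinase restrains under stress, and in elongation eEF1A brings aminoacyl-tRNA, eEF2 translocates, and fungi also need the ATPase eEF3. Release factors eRF1 and eRF3 end translation, and Rli1, Dom34 and Hbs1 split or rescue ribosomes. In fast-growing yeast most of these genes belong to the heavily expressed growth machinery, together with the ribosomal protein genes.

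The deposited tables held 5302691 (msp1delta), 4694951 (pex19delta), 4936802 (double deletion) and 5367091 (wild type) RNA-seq reads. The RPF totals were 1101458, 2300792, 1685722 and 2133432 reads in the same genotypes, so the msp1delta RPF library was the shallowest. MSP1 was listed at 1 RNA-seq read in msp1delta and the double deletion, against 731 in wild type, and PEX19 at 1 in pex19delta and the double deletion, against 387 in wild type. The lowest count listed for any gene was 1. Levels are given as scaled RPM (reads per 1000000, with reads divided by a library size corrected with TMM, the trimmed mean of M-values) when genotypes are compared, and as the authors' TPM (transcript shares, which divide by length) when genes are compared. A log2 ratio is a deletion over wild type within 1 assay, and the brackets after it hold an exact 95% counting interval, which covers the sampling of reads only and not the spread between cultures. The translational efficiency (TE) ratio is the RPF log2 ratio minus the RNA-seq log2 ratio. A gene was counted as 1.5-fold higher or lower when its log2 ratio lay beyond 0.58 in size.

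The start contexts of the members were read from the R64 (sacCer3) reference, which comes from strain S288C and not from W303. Of the 42 members, 33 have A at the third base before the ATG (78.6%, against 60.9% of 5990 genes with a start codon in that reference), 7 have G (16.7% against 19.2%), 2 have C (4.76% against 8.73%) and 0 have T (11.2% of all genes). SUI1 and PRT1 are the members with C. The contexts of those 2 genes and of 6 others whose values are described below are shown, from 12 bases before the ATG to the end of the second codon. Capitals mark the third base before the ATG and the ATG itself.
SUI1: gaagcaaatCgtATGtcc
PRT1: agcgggaaaCtaATGaaa
CAF20: taatttcacGacATGatc
TIF3: aaaggacacAtcATGgct
GCN3: tcgagaggaAggATGtcg
GCD7: gcccaacatAagATGtcc
EFB1: tatacacacAtaATGgca
YEF3: taacattaaAagATGtct
These windows lie at chrXIV:187491-187508 (SUI1, minus strand), chrXV:1017647-1017664 (PRT1, minus), chrXV:841321-841338 (CAF20, plus), chrXVI:869950-869967 (TIF3, minus), chrXI:489650-489667 (GCN3, minus), chrXII:719457-719474 (GCD7, minus), chrI:142162-142179 (EFB1, plus) and chrXII:636768-636785 (YEF3, plus). SUI1 encodes eIF1, the factor that guards start codon selection.

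Of the members, 6 form 3 pairs of nearly identical genes, and their counts are uncertain one by one. TIF1 and TIF2 both encode eIF4A, TEF1 and TEF2 both encode eEF1A, and EFT1 and EFT2 both encode eEF2. The coding sequences differ at 6 of 1188 bases (TIF1 and TIF2), 2 of 1377 (TEF1 and TEF2) and 4 of 2529 (EFT1 and EFT2), and each pair encodes the same protein. One differing base of each pair is shown in capitals inside a window of 41 bases.
TIF1: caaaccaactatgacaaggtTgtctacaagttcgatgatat
TIF2: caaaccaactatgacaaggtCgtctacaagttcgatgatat
TEF1: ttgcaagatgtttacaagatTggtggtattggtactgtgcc
TEF2: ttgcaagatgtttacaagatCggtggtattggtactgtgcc
EFT1: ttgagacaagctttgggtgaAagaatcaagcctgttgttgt
EFT2: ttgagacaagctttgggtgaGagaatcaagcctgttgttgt
The windows lie at chrXI:555026-555066 (TIF1, plus strand), chrX:154612-154652 (TIF2, minus), chrXVI:701335-701375 (TEF1, plus), chrII:478412-478452 (TEF2, plus), chrXV:575524-575564 (EFT1, plus) and chrIV:1243656-1243696 (EFT2, plus). A fragment of 28 bases can be placed in only 1 copy over 9.13% of the positions of TIF1 and TIF2, 4.15% of TEF1 and TEF2, and 4.48% of EFT1 and EFT2. The sources used here do not say how the authors counted reads that match both copies. The summed reads of a pair are therefore given for these 3 proteins, and their levels are not set against those of other genes.

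Footprints on the translation factors were fewer in msp1delta than in wild type, and the difference was concentrated in the initiation factors. The 42 genes took 1.73% of RPF reads in msp1delta, 1.86% in pex19delta, 1.88% in the double deletion and 2.02% in wild type. In RNA-seq they took 1.56% in msp1delta, 1.68% in pex19delta, 1.57% in the double deletion and 1.69% in wild type. The 28 initiation genes alone took 0.758% of RPF reads in msp1delta, 0.885% in pex19delta, 0.944% in the double deletion and 0.967% in wild type. The RPF share of the initiation genes was thus lowest in msp1delta, and the double deletion, which also lacks MSP1, stood next to wild type.

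In msp1delta, 32 of 42 members had fewer scaled footprints than in wild type, against 48.9% of all 3737 genes, and their median RPF log2 ratio was −0.26, against 0.01 for all genes. The counting interval lay wholly below wild type for 26 members and wholly above it for 4. Of all genes, 21.6% had an interval wholly below and 21.7% one wholly above. Intervals narrow as read number rises, and the shares given here and for the other deletions were not matched for read number. In RNA-seq 28 members were below wild type (50.5% of all genes were), with a median of −0.07 and intervals wholly below for 19 and wholly above for 3 (21.6% and 20.9% of all genes). The TE ratio was below 0 for 28 members (49.3% of all genes), with a median of −0.17. At 1.5-fold, 4 members were lower in RPF (GCD2, TIF3, TIF5 and FUN12), or 9.5% of members against 8.3% of all genes. That count stood near the background share and is no result about the set. Only GCN3 was higher, or 2.4% of members against 10.1% of all genes, and a count of 1 gene is no result about the set either. No member was beyond 1.5-fold in RNA-seq, where 0.883% of all genes were higher and 0.91% lower.

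The pex19 deletion gave a different picture in RNA. There 19 of 42 members were below wild type in RNA-seq (48.8% of all genes) with a median log2 ratio of 0.03, a value that was −0.02 when libraries were scaled by their totals. The RNA-seq interval lay wholly below wild type for 12 members and wholly above it for 18 (28.9% and 32.1% of all genes). In RPF 26 members were below wild type (49% of all genes), with a median of −0.07 and intervals wholly below for 16 and wholly above for 5 (15.3% and 15.7% of all genes). The TE ratio was below 0 for 28 members (48.6% of all genes), with a median of −0.13. The only member beyond 1.5-fold in a single assay was TIF2 in RNA-seq, where 5.41% of all genes were lower by that fold and 3.75% higher. In RPF 0 members were beyond it, where 2.92% of all genes were higher and 1.87% lower.

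In the double deletion 32 of 42 members were below wild type in RNA-seq (52.3% of all genes), with a median log2 ratio of −0.12 and counting intervals wholly below for 22 and wholly above for 3 (23.3% and 20.1% of all genes). In RPF 29 members were below wild type (48.3% of all genes), with a median of −0.07, and intervals lay wholly below for 7 and wholly above for 3 (10.4% of all genes each). The TE ratio was below 0 for 18 members (47% of all genes), and its median of 0.03 changed sign to −0.03 when TMM was computed over all listed genes. No member passed 1.5-fold in either assay, where 0.883% of all genes were higher and 1.39% lower in RNA-seq and 1.79% were higher and 1.34% lower in RPF. In none of the 3 deletions was any member beyond 1.5-fold in the same direction in both assays. Of all genes, 0.348% were that much higher and 0.187% that much lower in both assays in msp1delta, 0.482% and 0.482% in pex19delta, and 0.134% and 0.348% in the double deletion.

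**Figure D1:**
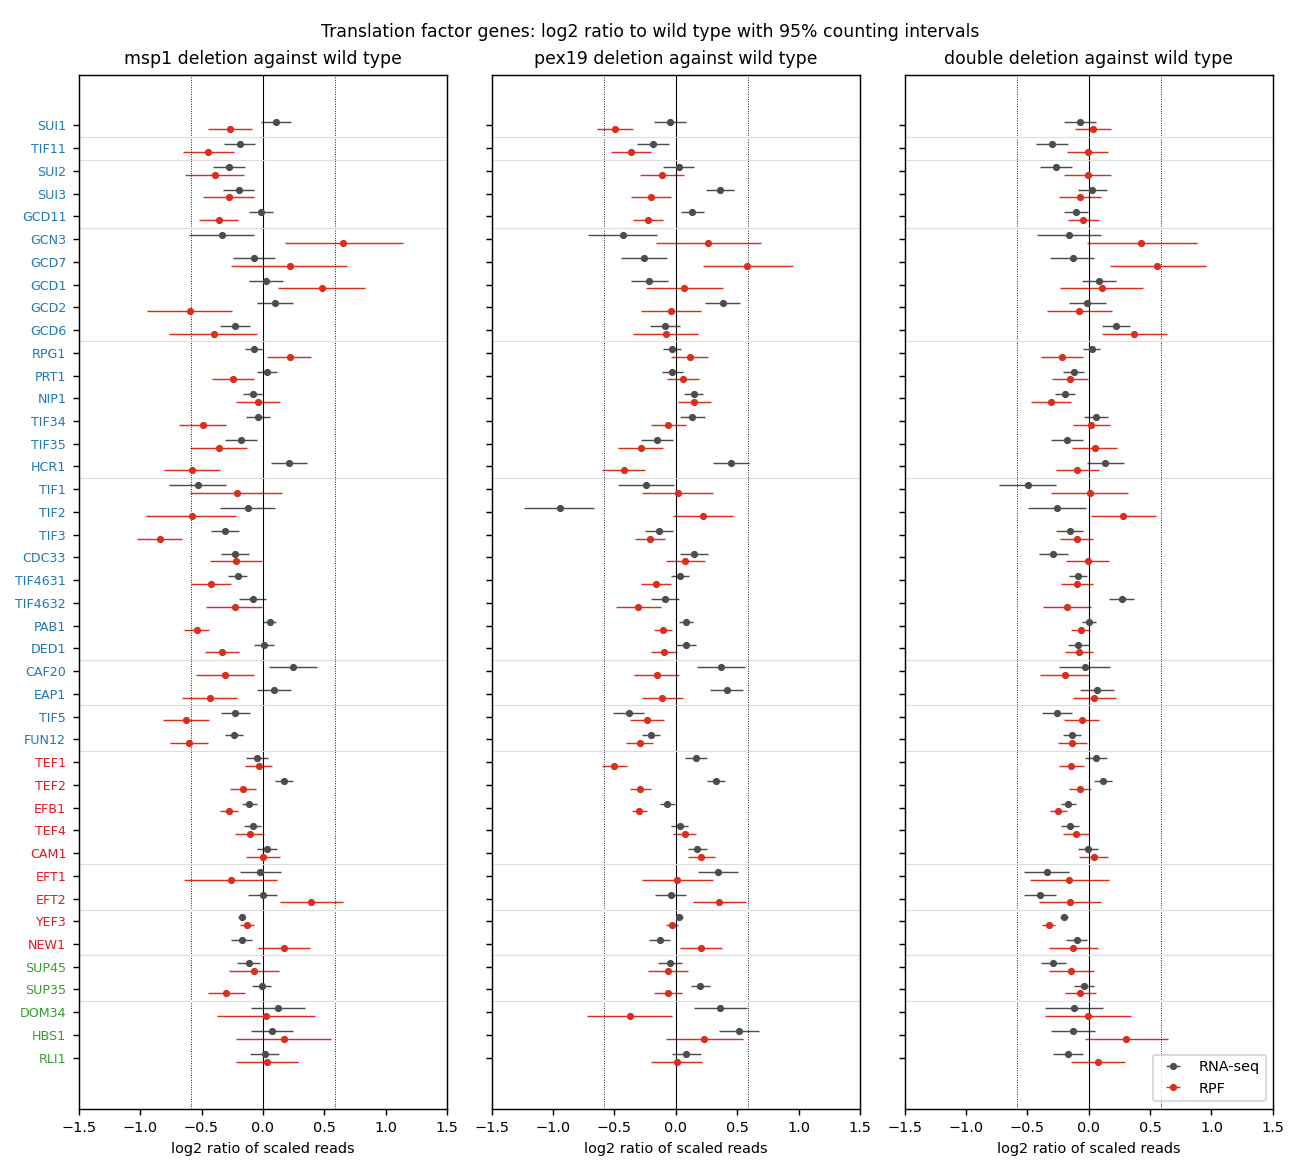
Log2 ratio of each deletion over wild type (horizontal axis) for the 42 members, in the panels msp1delta, pex19delta and double deletion, with RNA-seq in grey and RPF in red and bars for 95% counting intervals (1 library per genotype and assay). Gene names are blue for initiation, red for elongation and green for termination and recycling, dotted lines mark 1.5-fold, and the RPF points of the initiation factors lie left of 0 in msp1delta for 24 of 28 genes.

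The classes differed in msp1delta. The median RPF log2 ratio was −0.36 over the 28 initiation genes (24 lower), −0.11 over the 9 elongation genes (6 lower) and 0.03 over the 5 termination and recycling genes (2 lower). The last of these has no settled sign, since its median lay between −0.17 and 0.05 over all settings tried. The near-identical copies enter these class values as separate genes, TIF1 and TIF2 in initiation and TEF1, TEF2, EFT1 and EFT2 in elongation. With reads summed over the initiation genes, the RPF log2 ratio was −0.38 (−0.41 to −0.34) in msp1delta, −0.13 in pex19delta and −0.06 in the double deletion. The ribosomal protein genes, which are not members, had an RPF median of −0.50 in msp1delta with 135 of 137 genes lower, a median below those of the 3 classes on this scale. In RNA-seq the class medians in msp1delta were −0.08, −0.05 and 0.01 in the same order, and the ribosomal protein genes had −0.21.

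A relation to coding length went with these values, and the other deletions had such relations too. Across the genes with a coding length, the msp1delta RPF log2 ratio was higher for longer coding sequences. The Spearman correlation was 0.31 over all of them and 0.17 over the members. In RPF it was 0.21 and 0.29 in pex19delta, and −0.07 and −0.39 in the double deletion. The points of a comparison all come from the same pair of libraries. After a trend on coding length and GC content fitted over all genes was removed, the member median in msp1delta RPF was −0.24 with 33 of 42 genes below 0, and the initiation median was −0.37 with 23 of 28 below 0. Of all genes with a coding length, 1854 of 3735 were then below 0. The ribosomal protein genes then had a median of −0.28 with 126 of 137 below 0, so their order against the initiation genes was reversed. The elongation median was −0.12 with 7 of 9 below 0, and that of termination and recycling was −0.06 with 3 of 5 below 0. The member RPF medians were then −0.10 in pex19delta (28 of 42 below 0) and −0.06 in the double deletion (30 of 42 below 0). Of the 3735 genes, 1838 were below 0 in pex19delta and 1804 in the double deletion. Beyond these values, the part of the length relation in the results was not tested.

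**Figure D2:**
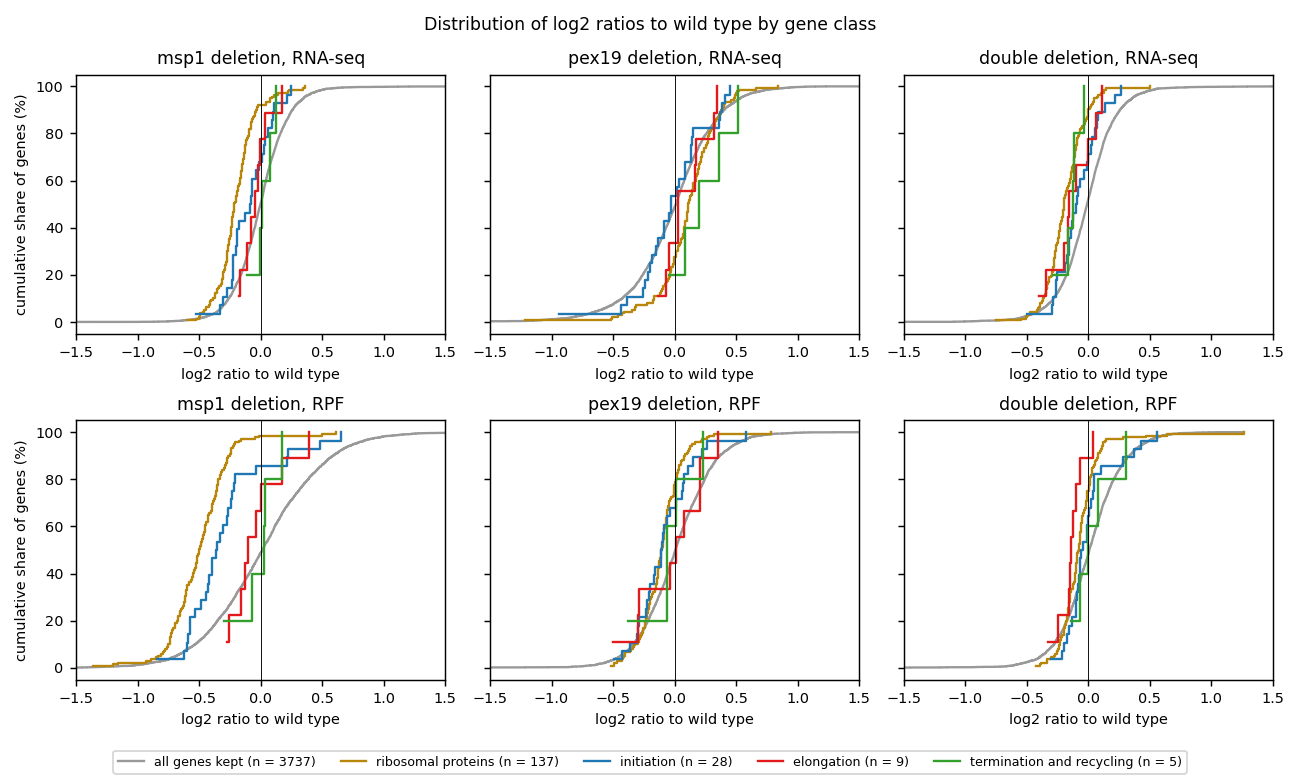
Cumulative share of genes (vertical axis) against the log2 ratio over wild type (horizontal axis), with RNA-seq in the top row, RPF in the bottom row and the panels msp1delta, pex19delta and double deletion. Each curve is 1 class of members, the ribosomal protein genes or all genes, and in msp1delta RPF the initiation curve (median −0.36) and the ribosomal protein curve (median −0.50) lie left of the curve of all genes (median 0.01).

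Each gene's 4 scaled values were also placed in order, which uses the same scaled reads as the ratios and is not independent of them. In RPF the lowest of the 4 genotypes was msp1delta for 24 members, pex19delta for 6, the double deletion for 6 and wild type for 6, while over all genes the shares were 34.8%, 19.5%, 22.3% and 23.5%. The highest RPF value was in msp1delta for 5 members, in pex19delta for 9, in the double deletion for 8 and in wild type for 20, while over all genes the shares were 35.3%, 20.5%, 23% and 21.3%. Among the 28 initiation genes 21 had their lowest RPF value in msp1delta and 14 their highest in wild type. In RNA-seq the order was another. The lowest value was in msp1delta for 12 members (22% of all genes), in pex19delta for 6 (34.2%), in the double deletion for 21 (24.9%) and in wild type for 3 (18.9%). The highest was in msp1delta for 2 (21.6%), in pex19delta for 23 (36.7%), in the double deletion for 4 (22.7%) and in wild type for 13 (19%). All 5 termination and recycling genes and 6 of 9 elongation genes had their lowest RNA-seq value in the double deletion.

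**Figure D3:**
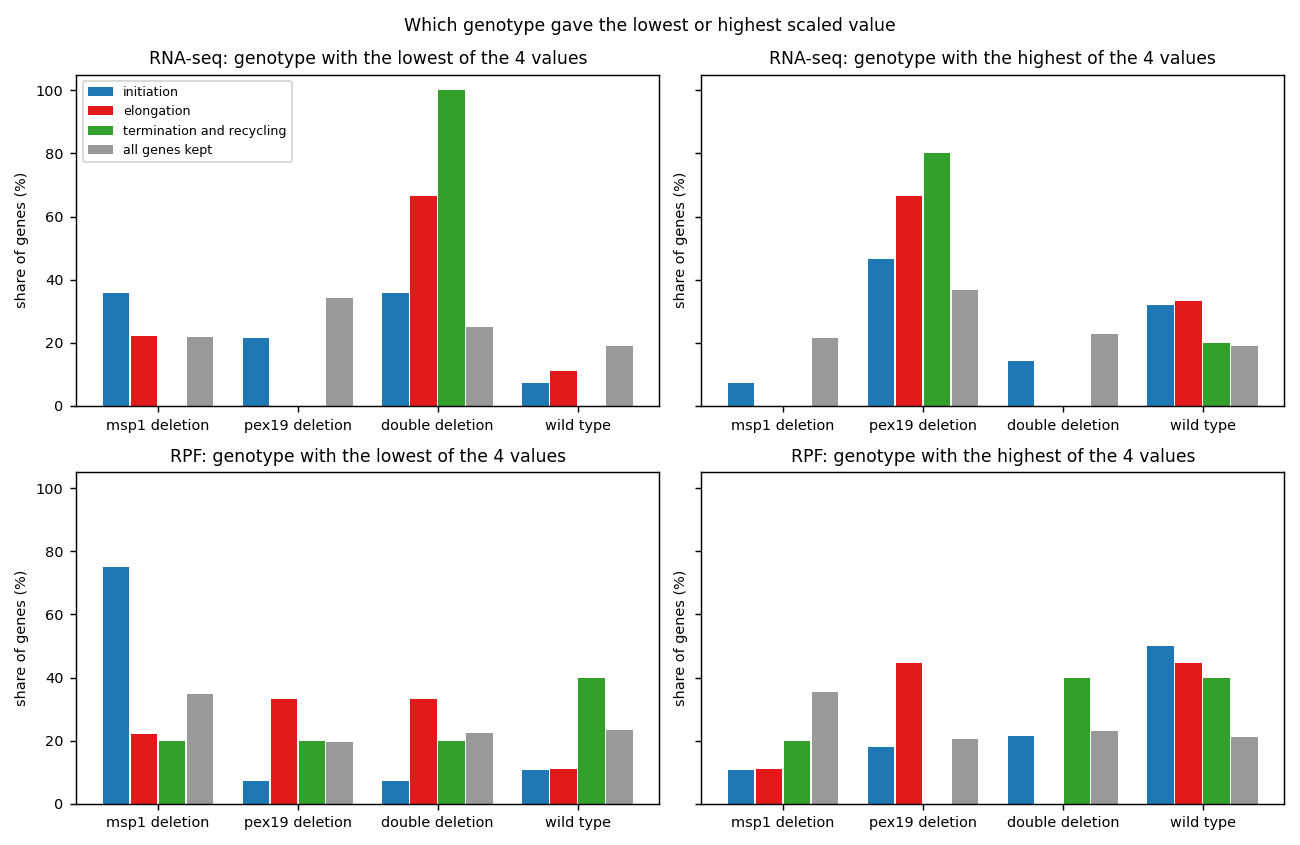
Share of genes, in percent (vertical axis), whose lowest or highest scaled value of the 4 genotypes falls in msp1delta, pex19delta, the double deletion or wild type, for RNA-seq and RPF, by class of members beside all 3737 genes. The initiation bar for the lowest RPF value stands at 21 of 28 genes in msp1delta.

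Among the factors that choose the start codon, SUI1 (eIF1) had 343 scaled RPF RPM in msp1delta, 293 in pex19delta, 423 in the double deletion and 413 in wild type. The double deletion and wild type were close, and both single deletions were lower. The RPF log2 ratios were −0.27 (−0.44 to −0.09) in msp1delta and −0.49 (−0.64 to −0.35) in pex19delta, the lowest of any initiation gene in pex19delta, while the SUI1 RNA-seq ratios were between −0.07 and 0.11. In msp1delta the SUI1 ratio was 0.03 after the length and GC trend was removed, so its direction there hung on that choice. TIF11 (eIF1A, the partner of eIF1 in scanning) had 240 scaled RPF RPM in msp1delta, 254 in pex19delta, 325 in the double deletion and 327 in wild type. As with SUI1, the double deletion and wild type had nearly the same footprint level, although TIF11 RNA was lower in all 3 deletions, with log2 ratios of −0.19, −0.19 and −0.30 in msp1delta, pex19delta and the double deletion.

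The 3 subunits of eIF2 had fewer footprints than wild type in each deletion, by little in the double deletion. GCD11 (the gamma subunit, which binds GTP and the initiator tRNA) had 421 scaled RPF RPM in msp1delta, 462 in pex19delta, 524 in the double deletion and 540 in wild type. SUI2 (alpha, the subunit that Gcn2 phosphorylates) had 183 in msp1delta, 222 in pex19delta, 239 in the double deletion and 240 in wild type, and SUI3 (beta) had 253, 267, 293 and 307 in the same genotypes. The order of the 4 genotypes was the same for the 3 genes. The RPF medians over the subunits were −0.36 in msp1delta, −0.20 in pex19delta and −0.04 in the double deletion. The RNA-seq medians over the subunits were −0.20 in msp1delta, 0.14 in pex19delta and −0.10 in the double deletion, so that pex19delta alone had an RNA median above wild type beside a footprint median below it. SUI3 stood out in pex19delta, where its RNA-seq ratio was 0.36 (0.24 to 0.48), its RPF ratio −0.20 (−0.36 to −0.04) and its TE ratio −0.56 (−0.76 to −0.36).

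The subunits of eIF2B, which recharges eIF2, did not move as a block. GCN3 (the alpha subunit, needed for the response to phosphorylated eIF2) had 62.1 scaled RPF RPM in msp1delta, 47.2 in pex19delta, 53.0 in the double deletion and 39.3 in wild type. Its scaled RNA-seq RPM was 39.5 in msp1delta, 36.9 in pex19delta, 44.6 in the double deletion and 49.8 in wild type. Footprints were highest in msp1delta and lowest in wild type, and RNA was lowest in pex19delta and highest in wild type. The RPF log2 ratio of GCN3 in msp1delta was 0.65 (0.18 to 1.14), a 1.57-fold difference and the highest RPF ratio of any member there, and the TE ratio was 0.99 (0.46 to 1.52). The TE ratios were 0.69 (0.20 to 1.19) in pex19delta and 0.59 (0.09 to 1.09) in the double deletion, and the wide intervals follow from the low read number of this gene.

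GCD7 (the beta subunit of eIF2B) had 56.7 scaled RPF RPM in msp1delta, 73.0 in pex19delta, 71.9 in the double deletion and 48.7 in wild type. Its RPF log2 ratio was 0.22 (−0.26 to 0.69) in msp1delta, 0.58 (0.22 to 0.95) in pex19delta and 0.56 (0.17 to 0.95) in the double deletion, the highest of all members in the last 2. Its RNA-seq ratios lay between −0.26 and −0.07, so that wild type was highest in RNA and lowest in RPF, as for GCN3. GCD1 (gamma) had 106 scaled RPF RPM in msp1delta, 80.0 in pex19delta, 81.9 in the double deletion and 76.2 in wild type, and only msp1delta stood apart, with a ratio of 0.48 (0.13 to 0.83).

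GCD2 and GCD6 went the other way in msp1delta. GCD2 (delta) had 86.5 scaled RPF RPM in msp1delta, 127 in pex19delta, 124 in the double deletion and 131 in wild type, a ratio of −0.59 (−0.95 to −0.25) in msp1delta. GCD6 (epsilon, the catalytic subunit) had 82.9 in msp1delta, 103 in pex19delta, 141 in the double deletion and 109 in wild type, with ratios of −0.40 (−0.76 to −0.04) in msp1delta and 0.37 (0.11 to 0.64) in the double deletion. In msp1delta the 5 subunits of eIF2B thus ran from −0.59 to 0.65 in RPF, while their RNA-seq ratios ran from −0.33 to 0.10. With reads summed over the 5 genes the RPF ratio was −0.03 (−0.20 to 0.13) in msp1delta, 0.09 in pex19delta and 0.22 (0.08 to 0.37) in the double deletion.

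For eIF3, the scaffold of the initiation complex, most subunits had fewer footprints in msp1delta and RPG1, the largest, did not. TIF34 (eIF3i) had 273 scaled RPF RPM in msp1delta, 368 in pex19delta, 388 in the double deletion and 383 in wild type, a ratio of −0.49 (−0.69 to −0.30) in msp1delta. TIF35 (eIF3g) had 195 in msp1delta, 205 in pex19delta, 259 in the double deletion and 251 in wild type. PRT1 (eIF3b) had 364 in msp1delta, 448 in pex19delta, 387 in the double deletion and 430 in wild type. All 3 were lowest in msp1delta. RPG1 (eIF3a) had 373 scaled RPF RPM in msp1delta, 347 in pex19delta, 276 in the double deletion and 321 in wild type, so it was highest in msp1delta, at 0.22 (0.04 to 0.40), and lowest in the double deletion, at −0.21 (−0.39 to −0.04). NIP1 (eIF3c) had 364 in msp1delta, 415 in pex19delta, 302 in the double deletion and 374 in wild type, and its double-deletion ratio of −0.31 (−0.47 to −0.14) was the lowest RPF ratio of any initiation gene there. With the length and GC trend removed, RPG1 was at 0.07 in msp1delta RPF and NIP1 at −0.18. PRT1 was then at −0.36, TIF34 at −0.47 and TIF35 at −0.30.

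HCR1 (eIF3j, a loosely bound subunit) had 197 scaled RPF RPM in msp1delta, 219 in pex19delta, 276 in the double deletion and 294 in wild type. Its RNA was 155 in msp1delta, 183 in pex19delta, 147 in the double deletion and 134 in wild type. Wild type was thus the highest of 4 in footprints and the lowest in RNA. The HCR1 RPF ratios were −0.58 (−0.81 to −0.35) in msp1delta, −0.43 (−0.60 to −0.25) in pex19delta and −0.09 (−0.27 to 0.08) in the double deletion. The TE ratios of −0.79 (−1.06 to −0.53) in msp1delta and −0.88 (−1.10 to −0.65) in pex19delta were the lowest of any member in both comparisons. At 1.5-fold, 3 members had a lower TE in msp1delta (GCD2, HCR1 and PAB1; 7.95% of all genes) and 1 a higher TE (GCN3; 10.5%). In pex19delta 4 had a lower TE (HCR1, TEF1, TEF2 and DOM34; 6.66% of all genes) and 3 a higher TE (GCN3, GCD7 and TIF2; 8.35%), and in the double deletion 2 had a higher TE (GCN3 and GCD7; 4.15%) and 0 a lower TE (2.78%).

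The 8 genes of eIF4F and mRNA binding all had fewer footprints in msp1delta than in wild type. TIF3 (eIF4B, a cofactor of the eIF4A helicase) had 291 scaled RPF RPM in msp1delta, 450 in pex19delta, 487 in the double deletion and 521 in wild type. Its RNA was 217 in msp1delta, 244 in pex19delta, 241 in the double deletion and 269 in wild type, so msp1delta was lowest and wild type highest in both assays. The RPF log2 ratio of −0.84 (−1.03 to −0.66) in msp1delta, 0.558 of the wild-type level, was the lowest of all 42 members, and the RNA-seq ratio was −0.31 (−0.42 to −0.19). In pex19delta and the double deletion the RPF ratios of TIF3 were −0.21 (−0.34 to −0.09) and −0.10 (−0.23 to 0.03).

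PAB1 (the poly(A)-binding protein) had 964 scaled RPF RPM in msp1delta, 1303 in pex19delta, 1337 in the double deletion and 1399 in wild type. Its RNA hardly varied, at 997, 1018, 959 and 960 in the same genotypes. The difference in msp1delta was therefore in footprints alone, with an RPF ratio of −0.54 (−0.64 to −0.44) and a TE ratio of −0.59 (−0.71 to −0.48). DED1 (a DEAD-box helicase of scanning) had 556 scaled RPF RPM in msp1delta, 655 in pex19delta, 661 in the double deletion and 699 in wild type, and its RNA-seq ratio in msp1delta was 0.01 (−0.07 to 0.09). CDC33 (eIF4E, which binds the cap) had 242 scaled RPF RPM in msp1delta, 298 in pex19delta, 280 in the double deletion and 282 in wild type, with only msp1delta below the others. Summed over the 8 genes, the RPF ratios were −0.47 (−0.52 to −0.41) in msp1delta, −0.11 in pex19delta and −0.07 in the double deletion.

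The eIF4G scaffold has a major gene, TIF4631, and a minor gene, TIF4632, whose coding sequences are 60.2% identical in the reference. TIF4631 took 64.9% of the pair's RPF reads in msp1delta, 69.9% in pex19delta, 68.9% in the double deletion and 67.8% in wild type. In RNA-seq it took 66.2% in msp1delta, 69.8% in pex19delta, 62.4% in the double deletion and 68.0% in wild type, so the double deletion stood apart in RNA and not in footprints. The RNA-seq ratio of TIF4632 in the double deletion was 0.27 (0.16 to 0.37), the highest of any member there, with an RPF ratio of −0.17 (−0.37 to 0.02) and the lowest TE ratio of the 42, −0.44 (−0.66 to −0.22). TIF4631 had RPF ratios of −0.42 (−0.58 to −0.26) in msp1delta, −0.16 in pex19delta and −0.10 in the double deletion.

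For eIF4A, TIF1 and TIF2 together had 562 RNA-seq reads in msp1delta, 427 in pex19delta, 513 in the double deletion and 727 in wild type. The summed RNA-seq ratios were −0.33 (−0.49 to −0.17) in msp1delta, −0.53 (−0.70 to −0.35) in pex19delta and −0.38 (−0.55 to −0.22) in the double deletion. Wild type was thus the highest of the 4 in RNA. The summed RPF reads were 173, 519, 394 and 437 in the same genotypes, with ratios of −0.41 (−0.67 to −0.15), 0.13 (−0.05 to 0.32) and 0.17 (−0.03 to 0.37) in msp1delta, pex19delta and the double deletion. Only msp1delta was lower in RPF. The separate counts of the copies went apart in pex19delta, where TIF2 had an RNA-seq ratio of −0.94 (−1.23 to −0.66) and TIF1 one of −0.24 (−0.47 to −0.01). TIF1 took 64.9% of the pair's RNA-seq reads in pex19delta, against 53.1% in wild type, a share that rests on the few positions at which the copies can be told apart.

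The eIF4E-binding repressors, which compete with eIF4G for the cap-binding protein, had RNA above and footprints below wild type in both single deletions. CAF20 had 87.9 scaled RNA-seq RPM in msp1delta, 95.7 in pex19delta, 72.5 in the double deletion and 74.1 in wild type. Its RPF values were 195, 217, 211 and 242 in the same genotypes. EAP1 had RNA-seq ratios of 0.09 (−0.05 to 0.23) in msp1delta, 0.41 (0.28 to 0.55) in pex19delta and 0.07 (−0.07 to 0.21) in the double deletion, and RPF ratios of −0.43 (−0.66 to −0.21), −0.11 (−0.28 to 0.06) and 0.05 (−0.13 to 0.22). The TE ratios of CAF20 were −0.55 (−0.85 to −0.25) in msp1delta, −0.52 (−0.79 to −0.26) in pex19delta and −0.16 (−0.45 to 0.12) in the double deletion, and those of EAP1 were −0.52, −0.52 and −0.02. The single deletions share their wild-type libraries, so these 2 sets of values are not independent.

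The GTPase steps at the end of initiation showed the largest group difference in msp1delta footprints. TIF5 (eIF5, the GTPase-activating protein of eIF2) had 283 scaled RPF RPM in msp1delta, 372 in pex19delta, 420 in the double deletion and 437 in wild type. FUN12 (eIF5B, which joins the ribosomal subunits) had 427 in msp1delta, 527 in pex19delta, 589 in the double deletion and 647 in wild type. Both genes had the same order of the 4 genotypes. The RPF ratios in msp1delta were −0.63 (−0.82 to −0.44) for TIF5 and −0.60 (−0.75 to −0.45) for FUN12, which is 0.647 and 0.660 of wild type, and their median of −0.61 was the lowest of the complexes. Their RNA was lower as well, with RNA-seq ratios of −0.23 for each in msp1delta, −0.38 and −0.20 in pex19delta, and −0.26 and −0.14 in the double deletion, TIF5 before FUN12.

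Elongation factors differed less than initiation factors in msp1delta, and eEF3 was lowest in the double deletion. EFB1 (eEF1B alpha, the exchange factor of eEF1A) had 1800 scaled RPF RPM in msp1delta, 1771 in pex19delta, 1836 in the double deletion and 2178 in wild type. All 3 deletions were below wild type, with RPF ratios of −0.28 (−0.35 to −0.20), −0.30 (−0.36 to −0.24) and −0.25 (−0.31 to −0.18) in that order. With the length and GC trend removed the RPF ratios of EFB1 were −0.14, −0.25 and −0.26. Its RNA-seq ratios were −0.11, −0.07 and −0.17. EFB1 and TEF4 are the members with 2 coding exons, and in the reference the intron of EFB1 holds the snoRNA gene SNR18 on the same strand and that of TEF4 holds SNR38, so reads from these snoRNAs could enter the counts if introns were counted.

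TEF4 and CAM1, the genes of eEF1B gamma, had 69.0% identical coding sequences and varied little. TEF4 had 760 scaled RPF RPM in msp1delta, 861 in pex19delta, 763 in the double deletion and 818 in wild type, and CAM1 had 594, 685, 610 and 593. TEF4 took 56.1% of the pair's RPF reads in msp1delta, 55.7% in pex19delta, 55.6% in the double deletion and 58.0% in wild type. The share in RNA-seq was 56.3% in msp1delta, 55.9% in pex19delta, 55.8% in the double deletion and 58.3% in wild type, so wild type was the highest in both assays, with a counting interval that overlapped those of the deletions. CAM1 had the highest RPF ratio of the elongation genes in the double deletion, 0.04 (−0.08 to 0.16).

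For eEF1A, TEF1 and TEF2 together had 5045 RNA-seq reads in msp1delta, 4985 in pex19delta, 4811 in the double deletion and 4912 in wild type, and 2048, 3486, 3137 and 4192 RPF reads. After scaling, the summed RNA-seq ratios were 0.08 (0.03 to 0.14) in msp1delta, 0.26 (0.20 to 0.32) in pex19delta and 0.09 (0.03 to 0.15) in the double deletion. The summed RPF ratios were −0.10 (−0.18 to −0.03), −0.38 (−0.45 to −0.32) and −0.10 (−0.17 to −0.03) in the same order. RNA above and footprints below wild type thus stood together in all 3 deletions, most widely in pex19delta. By single copies the lowest elongation RPF ratio in pex19delta was that of TEF1, −0.50 (−0.60 to −0.40), and TEF2 had the highest RNA-seq ratio of the class in msp1delta, 0.17 (0.10 to 0.24).

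For eEF2, EFT1 and EFT2 together had 1673 RNA-seq reads in msp1delta, 1584 in pex19delta, 1228 in the double deletion and 1737 in wild type. The summed RNA-seq ratios were −0.01 (−0.11 to 0.09) in msp1delta, 0.11 (0.01 to 0.20) in pex19delta and −0.38 (−0.48 to −0.27) in the double deletion, so the RNA was lower in the double deletion alone. The summed RPF ratios were 0.18 (−0.03 to 0.39), 0.23 (0.06 to 0.40) and −0.15 (−0.35 to 0.04) in the same order. EFT2 by itself had the highest RPF ratio of the elongation class in msp1delta, 0.39 (0.14 to 0.65), and in pex19delta, 0.36 (0.14 to 0.57), and EFT1 had the highest RNA-seq ratio of the class in pex19delta, 0.34 (0.18 to 0.51).

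YEF3 (eEF3, an ATPase found in fungi that acts with eEF1A and eEF2) had 3217 scaled RNA-seq RPM in msp1delta, 3702 in pex19delta, 3154 in the double deletion and 3627 in wild type. Its RPF values were 3077 in msp1delta, 3291 in pex19delta, 2688 in the double deletion and 3367 in wild type. The pex19delta value was close to wild type in both assays, and the double deletion was lowest in both. The RPF ratio in the double deletion was −0.32 (−0.38 to −0.27), the lowest of all members there, and the RNA-seq ratio −0.20 (−0.23 to −0.17). HEF3, a related gene that is not a member and whose coding sequence is 75.2% identical to YEF3, had 910 RNA-seq reads in msp1delta, 209 in pex19delta, 380 in the double deletion and 407 in wild type, and 154, 35, 30 and 35 RPF reads. Its msp1delta ratios were 1.20 in RNA-seq and 3.02 in RPF, yet YEF3 still held 94.9% of the pair's RNA-seq reads in msp1delta, against 98.0% in wild type. NEW1 (an ATPase related to eEF3 that acts near stop codons) had 267 scaled RPF RPM in msp1delta, 273 in pex19delta, 217 in the double deletion and 237 in wild type, with RNA-seq ratios of −0.17, −0.13 and −0.10 in msp1delta, pex19delta and the double deletion.

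The termination and rescue genes differed little in footprints and were mostly higher in RNA in pex19delta. SUP45 (eRF1, which reads the stop codon) had 271 scaled RPF RPM in msp1delta, 273 in pex19delta, 259 in the double deletion and 285 in wild type, and the intervals of all 3 ratios held 0. SUP35 (eRF3, its GTPase partner) had 457 in msp1delta, 538 in pex19delta, 536 in the double deletion and 562 in wild type, and only msp1delta had an interval wholly below wild type, at −0.30 (−0.45 to −0.15). In RNA-seq, SUP45 was lowest in the double deletion at −0.29 (−0.39 to −0.19), and SUP35 was highest in pex19delta at 0.20 (0.12 to 0.28). RLI1 (the ATPase that splits ribosomes after termination) had 179 scaled RPF RPM in msp1delta, 176 in pex19delta, 184 in the double deletion and 175 in wild type, the narrowest range of the class.

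DOM34 and HBS1, which together rescue stalled ribosomes, had more RNA in pex19delta. HBS1 had 111 scaled RNA-seq RPM in msp1delta, 151 in pex19delta, 96.9 in the double deletion and 106 in wild type, and its pex19delta ratio of 0.52 (0.36 to 0.68) was the highest RNA-seq ratio of any member there. Its RPF values were 81.0, 84.4, 89.0 and 71.9 in the same genotypes, lowest in wild type, and the 3 RPF intervals held 0. DOM34 had 66.2 scaled RNA-seq RPM in msp1delta, 78.3 in pex19delta, 56.0 in the double deletion and 60.9 in wild type, and 74.7, 56.4, 73.1 and 73.3 in RPF. Pex19delta was thus the highest genotype in DOM34 RNA and the lowest in its footprints, and the TE ratio there was −0.74 (−1.14 to −0.34). The TE ratio was below 0 in pex19delta for all 5 genes of the class, with a median of −0.27. With a minimum mean of 200 reads, which left SUP45, SUP35 and RLI1, that median was −0.08.

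Levels per length, compared over the 36 members present in 1 copy, ranked the factors in much the same way in all libraries. EFB1 was the highest in each, at 2504 TPM in msp1delta RPF, 2306 in pex19delta, 2324 in the double deletion and 2739 in wild type, and at 1312, 1400, 1275 and 1368 TPM in RNA-seq. SUI1 led the initiation class, with 984 TPM in msp1delta RPF, 786 in pex19delta, 1103 in the double deletion and 1069 in wild type. YEF3 was at 792, 793, 630 and 784 TPM in RPF in the same genotypes. These TPM serve to compare genes within a library and not genotypes. In RNA-seq they summed to 850122 in msp1delta, 911428 in pex19delta, 836204 in the double deletion and 813998 in wild type. The order of genotypes can differ from that in scaled RPM, where YEF3 RPF was 3077 in msp1delta and 3367 in wild type. The lowest members were GCN3 or DOM34 in RNA-seq, and in RPF an eIF2B gene or HBS1, which stood at 36.0 TPM in msp1delta, 35.1 in pex19delta, 36.0 in the double deletion and 28.9 in wild type. Among the termination genes SUP45 and SUP35 were the highest, and they were close to each other, at 230 and 211 TPM in msp1delta RNA-seq and 240 and 205 TPM in wild type. Within a genotype the RPF and RNA-seq levels of the 36 genes ranked alike, with a Spearman correlation of 0.91 in msp1delta, 0.91 in pex19delta, 0.87 in the double deletion and 0.86 in wild type, a description over genes of the same 2 libraries.

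**Figure D4:**
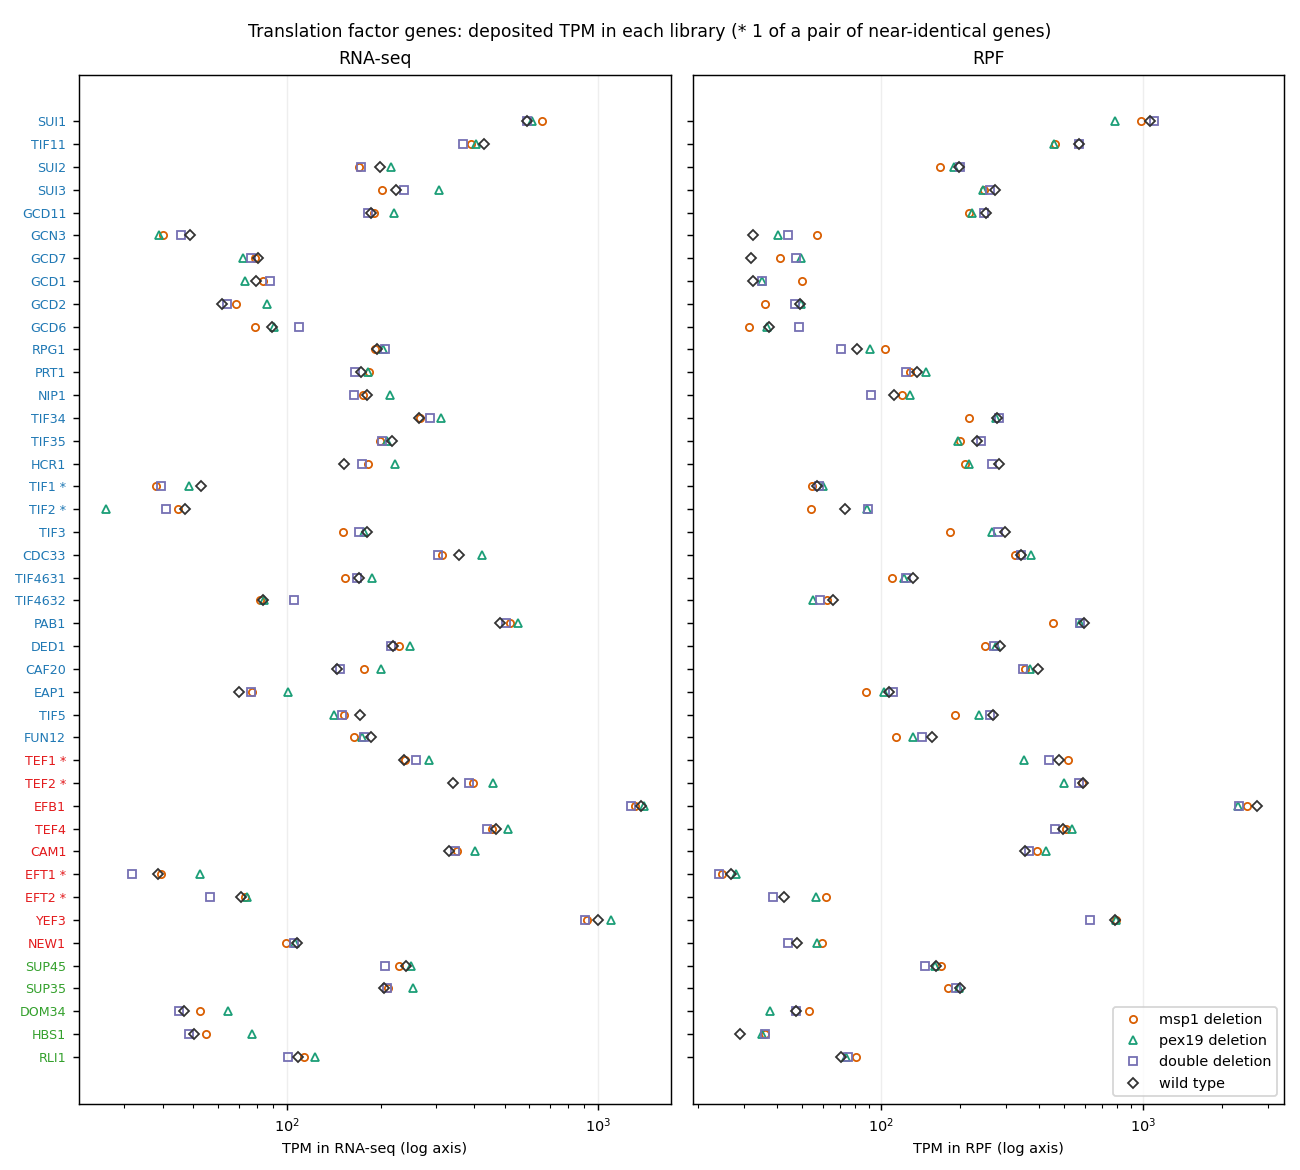
Deposited TPM (log axis) of each member in RNA-seq and RPF in the 4 genotypes, 1 point per library, with an asterisk for the 6 genes in near-identical copies, whose levels are uncertain. EFB1 is the highest of the 36 members present in 1 copy in each panel, at 2504 TPM in msp1delta RPF and 2739 TPM in wild-type RPF. The TPM compare genes within a library and are not on a common scale between genotypes.

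The subunits of a complex were closer to each other in RNA than in footprints for eIF3 and not for eIF2B. Over the 5 core subunits of eIF3 (RPG1, PRT1, NIP1, TIF34 and TIF35) the coefficient of variation of RPF TPM was 33.1% in msp1delta, 42.2% in pex19delta, 58.2% in the double deletion and 49.4% in wild type. In RNA-seq it was 18.1% in msp1delta, 22.6% in pex19delta, 24.5% in the double deletion and 18.1% in wild type. The footprint spread was thus widest in the double deletion, where RPG1 had 70.2 TPM and TIF34 had 282 TPM, and narrowest in msp1delta, where they had 104 and 218 TPM. The coding sequence of RPG1 has 2895 bases and that of TIF34 has 1044. The part of the length relation in this spread was not tested. For the 5 subunits of eIF2B the coefficient of variation of RPF TPM was 23.9% in msp1delta, 16.3% in pex19delta, 12.4% in the double deletion, with wild type between the single deletions and counting intervals that overlap. In RNA-seq it was 25.2% in msp1delta, 28.1% in pex19delta, 31.3% in the double deletion and 22.8% in wild type. The mean TPM of the eIF2 subunits divided by that of the eIF2B subunits was 4.91 in msp1delta RPF, 5.20 in pex19delta, 5.31 in the double deletion and 6.58 in wild type. Wild type was the highest of the 4 in that RPF quotient but not in RNA-seq, where the quotient was 2.68 in msp1delta, 3.43 in pex19delta, 2.58 in the double deletion and 2.82 in wild type.

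Translational efficiency within a genotype was taken as the log2 of RPF TPM over RNA-seq TPM, minus the median of all 3737 genes in that genotype. The members lay above that median, with a median efficiency of 0.41 in msp1delta, 0.41 in pex19delta, 0.66 in the double deletion and 0.58 in wild type. The ribosomal protein genes stood at 0.68, 0.78, 1.12 and 1.06 in the same genotypes. In both lists msp1delta and pex19delta were below the double deletion and wild type. CAF20 had the highest efficiency of the 1-copy members in every genotype, at 1.42 in msp1delta, 1.47 in pex19delta, 1.82 in the double deletion and 2.03 in wild type. At the low end stood RPG1 (−0.46, −0.58, −0.98 and −0.70) and GCD6 (−0.91, −0.71, −0.58 and −0.69), with the genotypes listed as for CAF20. RPG1 was highest in msp1delta and lowest in the double deletion, and GCD6 was the reverse.

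SUI1 and HCR1 were lower in the single deletions than in the double deletion and wild type, as were GCD11, EAP1 and DED1, among others. The upper quartile of all genes was also lower there, at 0.55 in msp1delta and 0.59 in pex19delta. It was 0.68 in the double deletion and 0.68 in wild type. SUI1 had an efficiency of 1.00 in msp1delta, 0.95 in pex19delta, 1.49 in the double deletion and 1.42 in wild type. HCR1 had 0.62 in msp1delta, 0.56 in pex19delta, 1.19 in the double deletion and 1.46 in wild type. GCN3 ran in the other direction, with 0.93 in msp1delta, 0.65 in pex19delta, 0.53 in the double deletion and −0.02 in wild type. TEF4 and CAM1 hardly varied, between 0.57 and 0.67 across both genes and the 4 genotypes. GCD7 was at −0.53 in msp1delta, 0.05 in pex19delta, −0.11 in the double deletion and −0.77 in wild type, so wild type was the lowest for both GCN3 and GCD7.

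Long coding sequences had lower efficiencies among the members, as they did in the whole table. The Spearman correlation of efficiency with coding length over the members was −0.65 in msp1delta, −0.61 in pex19delta, −0.69 in the double deletion and −0.57 in wild type. Over all genes it was −0.69, −0.70, −0.76 and −0.73 in the same genotypes, so each correlation over the members was closer to 0 than that over all genes. Points share their libraries. The length behind the authors' TPM, found from the double-deletion RNA-seq values, was the coding length less 50 bases for all 42 members. That divisor raises the TPM of short genes in both assays, and it cancels in the efficiency. The efficiencies of the members were the same when taken from read counts.

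**Figure D5:**
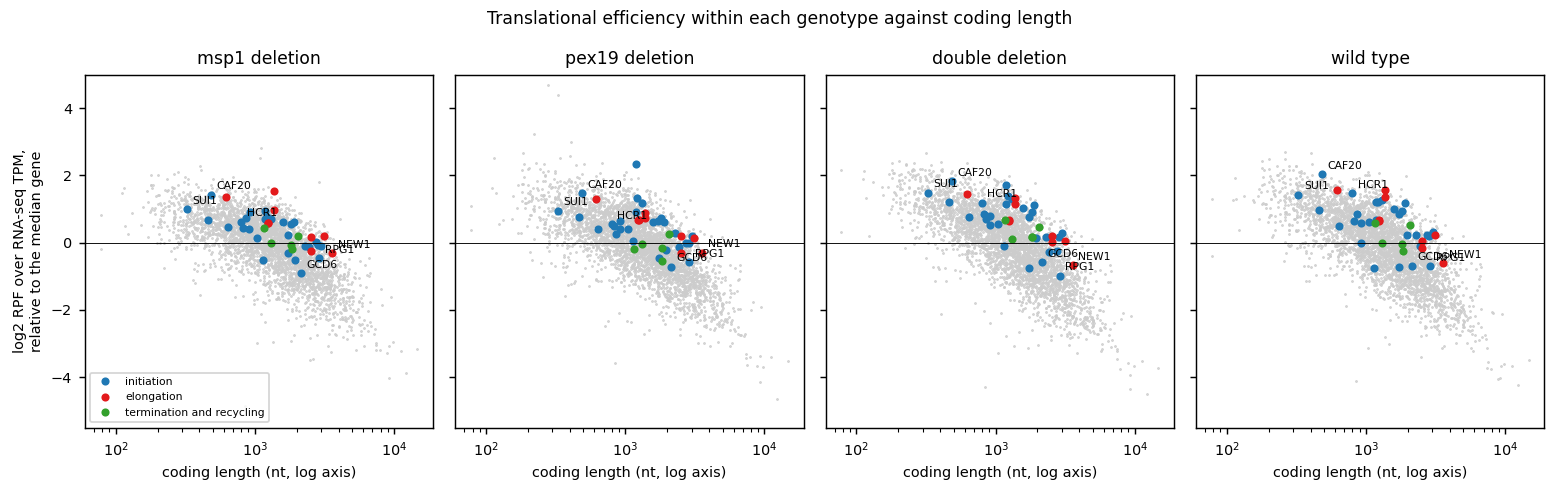
Translational efficiency within a genotype (log2 of RPF over RNA-seq TPM, minus the median of all genes, vertical axis) against coding length in bases (log axis) in the panels msp1delta, pex19delta, double deletion and wild type, with members in colour over all genes in grey. The members follow the downward course of all genes, with Spearman correlations between −0.69 and −0.57 in the 4 genotypes.

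Other genes of translation outside the 42 were read as a frame. Of 19 such genes (among them HYP2, the translation factor eIF5A, and GCN1, GCN2 and GCN20 of the Gcn2 pathway), 18 passed the read minimum and ANB1 did not. Their median RPF log2 ratio in msp1delta was −0.18 with 11 of 18 lower, −0.13 in pex19delta with 12 lower, and −0.01 in the double deletion with 9 lower. HEF3 in msp1delta was the only 1 of the 18 beyond 1.5-fold in both assays in any deletion, where 0.348% of all genes were that much higher in both assays in msp1delta. HYP2 had RPF ratios of −0.44 (−0.50 to −0.38) in msp1delta, −0.22 (−0.27 to −0.17) in pex19delta and −0.09 in the double deletion, with RNA-seq ratios of −0.00, 0.01 and −0.13.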

How the data were processed

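RNA-seq and RPF libraries of 4 genotypes, 1 each, were analysed. Fragments were selected at 19 to 40 nt (RNA-seq) and 19 to 33 nt (RPF) and sequenced as 60 nt reads, per the labels' protocols. Per the submitters' processing notes, cutadapt 1.8, STAR 2.5 and the build sacCer3 (R64) were used. For the read counter, its strand setting and its treatment of multiply mapped reads, the sources used here give nothing. The authors' deposited read counts per gene, all whole numbers, gave every ratio. The authors' deposited TPM values served for levels between genes. Per the file headers, the RNA-seq table of the double deletion adds RPM and RPKM columns by the authors, which served only to find the length behind TPM. Spike oligonucleotides were not used, so values are relative within an assay.

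The 42 genes were matched by name in all tables. The members and lists were chosen with earlier results of these data known. Each member is described, by complex, with full values for the largest and smallest ratio of a class and for both genes of each paralogue pair. Libraries were scaled within each assay with TMM (edgeR 4.0.16, R 4.3.3), over genes with a mean of at least 50 reads in that assay. The 3737 genes had to reach that mean in both assays. Before taking logs, 1 read, scaled to library size, was added. Intervals are exact 95% conditional binomial intervals (from 4 counts by the delta method for TE). They cover counting error only, and PCR duplicates were not separable. There is no replicate, so no test was run. The ratio scripts were tested on simulated counts, with the tolerance on recovered medians widened after a first run. Alternatives were other scalings (library totals, DESeq2 1.42.0 size factors, other TMM gene sets), pseudocounts, read minimums, a length and GC trend, summed copies, and TPM lengths. Gene positions and sequences come from the R64 reference.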

Additional observations from a re-analysis of the deposited data

How the results depend on the processing

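Of 1853 medians, counts and subunit spreads under the alternatives, 1817 stayed inside their counting interval or, for counts of members, within 1.5-fold. Another 33 moved beyond that, and 3 changed sign although their interval had excluded 0. By the same rules, of 4200 values of single members 4153 stayed, 45 moved and 2 changed sign. Changes of sign inside an interval that held 0 were counted as staying. The member median in double-deletion TE, between −0.030 and 0.057 over all settings, was such a case. The cause was not tested where a value moved. TMM over all listed genes lowered the median of all genes by 0.199 in msp1delta RPF, and the msp1delta medians moved with it. In RPF they became −0.462 for the members, −0.307 for elongation, −0.561 for eIF2, −0.813 for eIF5 and eIF5B, −0.307 for eEF1, −0.179 for the eEF3 family and −0.386 for the release factors, with 13 members 1.5-fold lower and 0 higher, where 17.7% of all genes were 1.5-fold lower and 4.71% higher. In TE they became −0.220 for elongation, −0.475 for eIF4F and mRNA binding, −0.580 for eIF5 and eIF5B, −0.228 for eEF1, −0.0030 for the eEF3 family and −0.320 for the release factors, with 9 members 1.5-fold lower, where 16.6% of all genes were. The termination and recycling median became −0.172 in RPF. With library totals 2 members were 1.5-fold lower in msp1delta RPF, where 7.55% of all genes were. In pex19delta RNA-seq under that scaling the elongation median was −0.0148 and YEF3 −0.0160. DESeq2 size factors, both other TMM gene sets, a pseudocount of 5 and the length and GC trend each left 1 member 1.5-fold higher in TE in the double deletion. Of all genes, between 2.89% and 3.96% were that much higher under these settings. A minimum mean of 200 reads left 0 members 1.5-fold higher in msp1delta RPF and TE (4.47% and 3.58% of the 1453 genes kept). In pex19delta TE 1 was higher and in double-deletion TE 0 (2.62% and 0.688% of genes). Counts of 0 or 1 member are no result about the set. The termination and recycling median was then 0.0841 in pex19delta RNA-seq and −0.0751 in pex19delta TE. Removing the length and GC trend gave eEF3 family medians of −0.139 (RPF) and 0.0413 (TE) in msp1delta, and SUI1 at 0.0274 in msp1delta RPF. In pex19delta it gave 1 member 1.5-fold higher in RPF (2.84% of all genes) and an elongation median of −0.158 in TE. Summing the copies left 0 members 1.5-fold lower in pex19delta RNA-seq (5.38% of all genes). In pex19delta it gave eEF1 medians of −0.113 (RPF) and −0.0991 (TE) and an elongation median of 0.0320 (TE). The initiation median in msp1delta RPF lay between −0.560 and −0.335 over all settings. A list median was given only where most of the list remained, a rule chosen after the values were seen, so the minimum of 200 reads gave none for eIF2B and for rescue and recycling. Summed copies have no value of their own for each gene. No paired analysis was possible because each genotype had 1 library per assay. Depth limits the members with few footprints (GCN3, GCD7, DOM34 and HBS1), and the absence of replicates limits every ratio.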
